A study of Mus musculus with 18 samples.

Results

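Overexpression of TIA1 during reprogramming was examined by comparing the 2 T7-TIA1 libraries with the 2 Empty libraries at day 12, which are 4 of the 18 RNA-seq libraries of the series. The 4 libraries were identified by their group labels, whereas the gene lists used below were drawn up with earlier results of these data known. The cells were primary mouse embryonic fibroblasts (MEFs) of the genotype Collagen-OKSM, M2rtta+, in which doxycycline switches on *Pou5f1*, *Klf4*, *Sox2*, and *Myc* (OKSM) from a transgene. At day 0 they were infected with a retrovirus (MIG-pMSCV, with an IRES-GFP reporter) that was either empty (Empty) or carried mouse *Tia1* cDNA with an N-terminal T7 tag (T7-TIA1), and doxycycline and LIF were added at the same time. GFP-positive cells were sorted at day 2, replated on irradiated feeder cells, and harvested with trypsin at day 12, so that the RNA can include that of feeders. The 2 libraries of non-infected cells (NI) at day 0, which have the same genotype, served to estimate the spread between libraries. One field of their labels reads day 12, whereas their titles and the paper's methods say day 0, the day used here. Nothing in the labels says whether replicates came from separate cultures, so p values measure only the spread between these libraries.

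TIA1 is an RNA-binding protein that recognizes U-rich RNA. As a nuclear splicing regulator it contacts introns just past the 5′ splice site, where it assists U1 snRNP, and depending on its position an exon can be included or skipped. In the cytoplasm it binds AU-rich elements of mRNAs such as those of cytokines, restrains their translation, and gathers in stress granules. Reprogramming of fibroblasts passes through loss of the mesenchymal program, of which the extracellular matrix is a large part, before pluripotency genes come on.

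The expression table held 9472 genes in CPM relative to a scaled library size (scaled CPM), each at 5.07 or more in every library, so that genes low or silent in any condition could not be examined. *Pou5f1*, *Sox2*, *Epcam*, *Cdh1*, *Zfp42*, and *Lef1* were among the genes not listed. Between 99273992 and 103449594 reads fell on listed genes in the 4 day 12 libraries. Across genes, log2 values of the T7-TIA1 libraries correlated at 0.991 with each other, as did those of the Empty libraries. T7-TIA1 replicate 1 correlated with Empty replicates 1 and 2 at 0.976 and 0.976, and T7-TIA1 replicate 2 at 0.988 and 0.991. The NI libraries correlated with each other at 0.946 only, and their spread enters every test that includes them. Percent spliced in (PSI), the inclusion level of an exon, intron, or splice site among the transcripts that span it, was listed for 661941 events, and 422272 of them reached at least the coverage score VLOW in all 4 day 12 libraries.

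*Tia1* (chr6:86404219-86433405, mm10) was expressed at 85.6 and 77.04 scaled CPM in the Empty libraries, 613 and 469 in the T7-TIA1 libraries, and 72.1 and 102.8 in the NI libraries. Both T7-TIA1 libraries lay far above all others, and replicate 1 was the higher of the pair. The difference was 2.71 on the scale log2(scaled CPM + 1), on which all expression differences are given here and which understates changes of low genes (standard error 0.21, adjusted p = 0.222 in *limma*). The reads of the cDNA and of the endogenous gene are summed in this value. Reads that include the 66 nt *Tia1* exon at chr6:86423606-86423671 numbered 257 and 194 in the Empty libraries and 104 and 166 in the T7-TIA1 libraries. Reads that skip it numbered 219 and 290 against 11421 and 7754. Reads over 12 *Tia1* introns, an intronic measure of the endogenous gene, were also fewer in T7-TIA1 (212 and 303) than in Empty (511 and 416). Reads that include the exon and reads over introns did not overlap between the groups, whereas reads that skip the exon were far more numerous in T7-TIA1. In the NI libraries, reads that include the exon numbered 52.9 and 105.9, and reads over introns 255 and 418. A fall of the endogenous transcript was not tested. *Tial1* (chr7:128439777-128461717), the paralog of *Tia1* with overlapping functions, was at 145 and 126 scaled CPM in Empty and at 160 and 167 in T7-TIA1, a log2 difference of 0.27 (adjusted p = 0.999).

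No gene passed an adjusted p of 0.05 in *limma* (0 of 9472 genes, 0%), whereas 393 genes (4.15%) had an unadjusted p under 0.05, of which 224 were higher and 169 lower in T7-TIA1. The groups did not overlap for 2582 genes that were higher in both T7-TIA1 libraries (27.3% of all genes) and for 2337 that were lower (24.7%). With a difference of at least 1.5-fold in addition, 92 genes stood apart as higher (0.971%) and 186 as lower (1.96%). These genes are called set apart here, which describes the 4 libraries and is not a test. By the distance between the closest libraries, *Igfbp5*, *Fndc1*, and *Dkk2* led the lower genes, and *Tia1*, *Adh7*, and *Gsto1* the higher genes. Without T7-TIA1 replicate 1, 50 genes were set apart as higher and 98 as lower, without T7-TIA1 replicate 2, 210 and 305, and without Empty replicate 2, 159 and 191. T7-TIA1 replicate 1 was further from the Empty mean than replicate 2 for 86 of the 92 higher genes and 178 of the 186 lower genes.

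**Figure D1:**
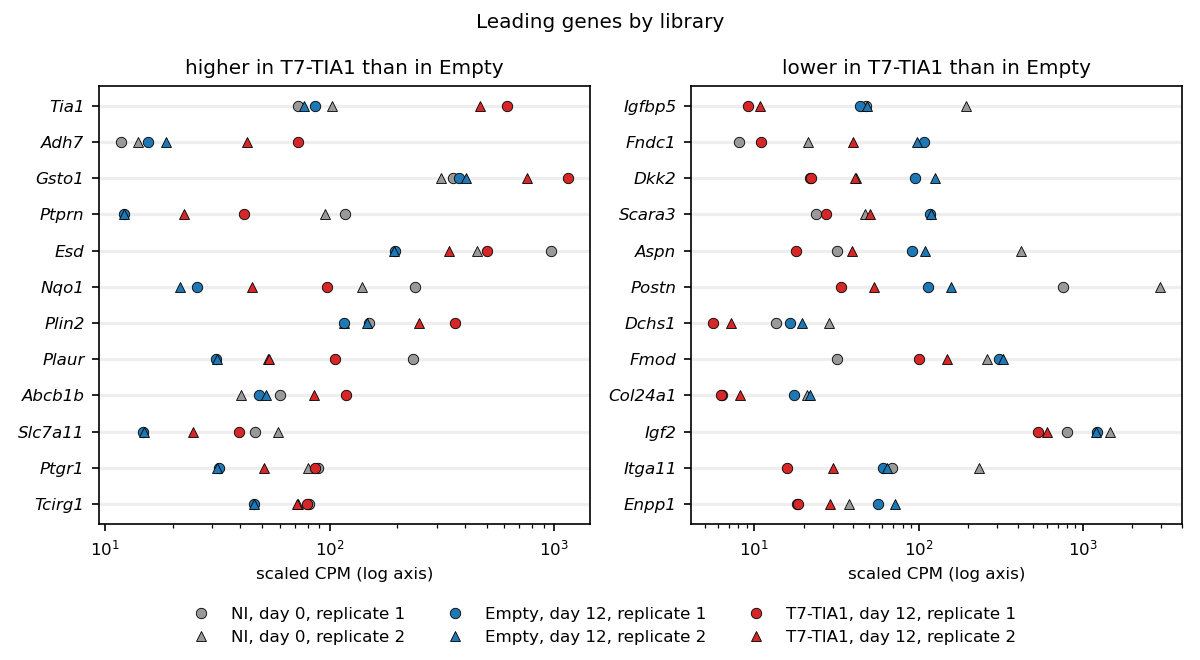
Scaled CPM (log axis) of the 12 genes per direction with the widest distance between the closest T7-TIA1 and Empty libraries, in each of the 6 libraries of the overexpression dataset (circles, replicate 1; triangles, replicate 2). The T7-TIA1 libraries do not overlap the Empty libraries for any of these genes, and replicate 1 of T7-TIA1 is the more distant for 12 of 12 higher and 12 of 12 lower genes.

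The gene with the widest gap in the lower direction was *Igfbp5* (chr1:72857932-72874884), a secreted binding protein of insulin-like growth factors. It was at 44.0 and 48.3 scaled CPM in the Empty libraries and at 9.22 and 10.8 in the T7-TIA1 libraries, a log2 difference of −2.10 (standard error 0.61, adjusted p = 0.999 in *limma*). When only the Empty and T7-TIA1 libraries were fitted, *Igfbp5* and *Tia1* had an adjusted p of 0.00657 each and no other gene was under 0.05 in that fit. *Igf2* (chr7:142650766-142666816), the growth factor that such proteins bind, was at 1212 and 1205 in Empty and at 531 and 603 in T7-TIA1 (log2 difference −1.09, adjusted p = 0.999). *Igfbp4*, another binding protein of this family, was at 270 and 298 against 127 and 162. The 3 genes were thus lower in both T7-TIA1 libraries. *Fndc1* (chr17:7738569-7827302), which encodes a protein with fibronectin type III domains, had the largest negative difference of the 9472 genes, −2.23, with 108 and 97.7 in Empty and 11.04 and 39.8 in T7-TIA1. The T7-TIA1 replicates of *Fndc1* were themselves well apart.

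Matrix genes made up the largest group of genes set apart as lower. Of 54 genes of a list of collagens and matrix proteins 49 were listed, of which 14 (28.6%) were set apart as lower, against 1.96% of all genes, and 0 as higher. Their median log2 difference was −0.34, against −0.0021 over all genes, and 42 of the 49 were negative. *Postn* (chr3:54361109-54391037), the matricellular protein periostin, was at 114 and 157 scaled CPM in Empty and at 33.9 and 53.4 in T7-TIA1. The small leucine-rich proteoglycan *Dcn* was at 91.8 and 128 against 25.3 and 48.3. Its relatives outside the list, *Aspn* (90.9 and 109.5 against 18.04 and 39.3) and *Fmod* (309 and 326 against 100.2 and 149.8) were lower as well. *Col6a3*, a chain of type VI collagen, was at 618 and 568 against 233 and 324, and the fibrillar chain *Col24a1*, also outside the list, at 17.4 and 21.7 against 6.27 and 8.18. The abundant fibrillar chain *Col1a2* was at 1718 and 1921 in Empty and at 1095 and 1275 in T7-TIA1. For each of these the groups were separate, and no adjusted p was under 0.05. The spread between the NI libraries was wide for matrix genes. *Postn* was at 759 and 2928 there, and *Aspn* at 31.9 and 418.

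*Itga11*, an integrin subunit that binds collagen, was at 61.0 and 64.1 in Empty and at 15.8 and 30.2 in T7-TIA1. *Dchs1*, a large cadherin of planar cell polarity, was at 16.4 and 19.4 against 5.66 and 7.25. *Pdgfra*, a receptor for platelet-derived growth factor and a marker of mesenchymal cells, was at 90.5 and 105 against 25.8 and 48.4. *Enpp1*, an ectoenzyme that makes pyrophosphate, was at 56.8 and 72.0 against 18.5 and 28.7, and the scavenger receptor gene *Scara3* at 117 and 119 against 27.4 and 50.4. Among 16 listed genes of Wnt signalling, 4 were set apart as lower, against 1.96% of all genes, and 0 as higher. They were the secreted antagonists *Dkk2* (95.7 and 126 in Empty, 22.1 and 40.8 in T7-TIA1), *Sfrp1* (937 and 1165 against 264 and 671), and *Sfrp2* (19.6 and 35.2 against 10.2 and 18.3), and the receptor *Fzd2* (25.1 and 34.1 against 11.9 and 21.5). The list's median log2 difference was −0.26. Of 28 listed genes of TGF-β and BMP signalling, 3 were set apart as lower (10.7%, against 1.96% of all genes) and 0 as higher, and the median of −0.088 came to 0.011 without Empty replicate 2. The 3 were *Tgfbi*, a TGF-β-induced matrix protein (215 and 219 in Empty, 33.2 and 113 in T7-TIA1), *Ltbp1*, which tethers latent TGF-β to the matrix (104 and 122 against 73.0 and 75.3), and the co-receptor *Tgfbr3* (162 and 195 against 95.7 and 145).

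Fibroblast identity genes did not all lie on the same side. Of 25 listed fibroblast transcription factors and surface proteins, 4 were set apart as lower (*Pdgfra*, *Pdgfrb*, *Cd248*, and *Cdh11*) and 2 as higher. Over all genes, 1.96% were set apart as lower and 0.971% as higher. The median log2 difference of the 25 genes was −0.31. The 2 higher genes were the hyaluronan receptor *Cd44* (367 and 380 in Empty, 799 and 555 in T7-TIA1) and N-cadherin, *Cdh2* (22.1 and 31.6 against 76.5 and 45.3). The summed level of the 25 genes overlapped between groups, at 5380 and 6199 scaled CPM in Empty and 6155 and 5752 in T7-TIA1. *Vim* was at 1976 and 1967 against 2533 and 2267, and *Thy1* at 293 and 308 against 216 and 231, so that fibroblast markers were present in every library. In RNA from bulk cultures, fewer cells of a type and less RNA per cell cannot be told apart, and neither can RNA of reprogrammed cells and of feeders. Macrophage, endothelial, and skeletal muscle markers (6 of each) were not listed, and of 18 neuronal, trophoblast, and adipocyte markers 7 were listed with 0 set apart.

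Higher genes after *Tia1* were led by *Adh7* (chr3:138217760-138233382), an alcohol dehydrogenase that also oxidizes retinol, with 15.5 and 18.6 scaled CPM in Empty and 72.1 and 42.8 in T7-TIA1 (log2 difference 1.65, standard error 0.26, adjusted p = 0.999 in *limma*). *Gsto1* (chr19:47854970-47864790), a glutathione transferase, followed with 375 and 406 against 1147 and 754. *Nqo1* (chr8:107388225-107403206), a quinone reductase, was at 25.7 and 21.4 against 96.8 and 45.1. The esterase *Esd* was at 196 and 193 against 500 and 340, *Ptgr1*, which reduces lipid aldehydes and prostaglandins, at 31.9 and 31.5 against 85.8 and 50.9, and *Slc7a11*, the cystine importer that feeds glutathione synthesis, at 14.8 and 14.9 against 39.4 and 24.6. For each of these the Empty libraries were closer to each other than the T7-TIA1 libraries were, and both T7-TIA1 libraries were above them.

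*Nqo1*, *Ptgr1*, and *Slc7a11* are known targets of NRF2, the transcription factor of the oxidative stress response, and a list of 31 NRF2 targets was drawn up after these values had been seen. Of its 29 listed genes, 24 had positive differences, 6 were set apart as higher (20.7%, against 0.971% of all genes), and 0 as lower, with a median log2 difference of 0.29. The other 3 set apart were heme oxygenase, *Hmox1* (193 and 182 in Empty, 417 and 288 in T7-TIA1), the autophagy receptor *Sqstm1* (282 and 311 against 542 and 422), and sulfiredoxin, *Srxn1* (29.6 and 31.4 against 60.0 and 41.5). *Nfe2l2*, which encodes NRF2, was at 125 and 152 against 152 and 164, and its inhibitor *Keap1* at 25.3 and 26.9 against 24.3 and 25.3, so that the groups overlapped for both. Since the list followed from the leading genes, its counts describe the same values again.

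Further leading genes of the higher direction were the lipid droplet coat protein gene *Plin2* (115 and 147 in Empty, 360 and 249.8 in T7-TIA1), the drug efflux pump *Abcb1b* (48.3 and 51.9 against 118 and 84.7), *Ptprn*, a phosphatase-like protein of secretory granules (12.2 and 12.1 against 41.7 and 22.5), and *Tcirg1*, a subunit of the vacuolar proton pump (46.2 and 45.8 against 79.3 and 71.3). *Plaur*, the receptor of urokinase, was at 31.0 and 31.5 against 106 and 53.8. It belongs to a list of immediate-early, cytokine, and other mRNAs with AU-rich elements, 25 of whose 30 genes were listed. Of the 25, 5 were set apart as higher, against 0.971% of all genes, and 0 as lower, and their median log2 difference was 0.24, which came to 0.11 without Empty replicate 1 and 0.47 without Empty replicate 2. *Ptgs2*, the inducible cyclooxygenase, was at 68.4 and 83.5 against 190 and 116. The AP-1 subunit *Fosl1* was at 9.11 and 9.23 against 19.4 and 13.7, and the transcription factor *Klf6* at 105 and 112 against 195 and 143. The chemokine gene *Ccl2* was the other member set apart. *Plaur*, *Ptgs2*, *Fosl1*, and *Klf6* were higher in both NI libraries than in Empty, with *Ptgs2* at 1409 and 487 and *Plaur* at 236 and 52.95.

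Genes of the interferon response and targets of p53 were mostly on the higher side, where 4688 of all 9472 genes lay. Of 15 listed interferon genes, 3 were set apart as higher (0.971% of all genes were) and 14 had positive differences, with a median of 0.28 that came to 0.17 without T7-TIA1 replicate 2 and 0.43 without Empty replicate 2. The RNA sensor *Ifih1* was at 5.07 and 6.94 in Empty and at 9.75 and 13.4 in T7-TIA1, and *Xaf1* at 20.2 and 23.4 against 34.5 and 47.1. Unlike most leading genes, both were higher in T7-TIA1 replicate 2 than in replicate 1. Of 23 listed p53 targets and cell cycle brakes, 21 had positive differences (median 0.21, and 0.32 without Empty replicate 2 or without T7-TIA1 replicate 1), 2 were set apart as higher, and 1 as lower (0.971% and 1.96% of all genes were). The BH3-only gene *Pmaip1* was at 99.5 and 105 against 171 and 144, and the cell cycle inhibitor *Cdkn1a* at 346 and 499 against 666 and 599.6. *Cdkn1b*, another inhibitor of the cell cycle, was lower (64.8 and 62.1 against 31.0 and 54.2).

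Lists that describe growth and core functions showed small differences. None of 38 mitosis genes and none of 34 listed DNA replication genes was set apart, with medians of −0.11 and −0.052, which came to −0.018 and 0.022 without Empty replicate 1, and 36 of the 38 mitosis genes were negative. Of 53 listed cytosolic ribosomal protein genes, 51 were negative with a median of −0.10, which came to −0.048 without Empty replicate 1, and 0 were set apart. Respiratory chain genes had a median of 0.016 with 0 of 37 set apart, as had the endoplasmic reticulum chaperones with a median of −0.0062 and 0 of 19. Of 27 listed genes of glycolysis and hypoxia, 25 were negative, with a median of −0.21 that came to −0.029 without Empty replicate 1, whose summed level for the list, 17561 scaled CPM, was above the 14605, 14873, and 14632 of the other day 12 libraries. Set apart as lower were 2 of them (7.41%, against 1.96% of all genes), the vasodilator peptide gene *Adm* (74.3 and 63.1 in Empty, 25.4 and 51.2 in T7-TIA1) and the prolyl hydroxylase *Egln3* (152 and 81.0 against 42.7 and 68.7). Of 28 stress granule genes 1 was set apart, *Tia1* itself, and 0 of 12 genes of U1 snRNP and 5′ splice site recognition were. Among 40 listed splicing regulators, only *Mbnl3* was set apart (6.80 and 5.63 in Empty, 15.2 and 8.54 in T7-TIA1). *Tia1* and *Mbnl3* were set apart as higher, as were 0.971% of all genes.

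Among the remaining lists, 3 of 30 listed growth factors and receptors were set apart as higher (*Ereg*, *Hbegf*, and *Nrg1*, ligands of the EGF receptor family) and 5 as lower (*Igf2*, *Igfbp4*, *Igfbp5*, *Ptn*, and *Spry1*), against 0.971% and 1.96% of all genes. Contractile and cytoskeletal genes had 2 of 31 set apart as lower (*Lmod1* and *Itga11*), the integrated stress response 1 of 27 as higher (*Slc7a11*), autophagy and lysosome 1 of 30 as higher (*Sqstm1*), and cholesterol and fatty acid synthesis 0 of 25.

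Only 8 of 35 pluripotency and early embryo genes and 6 of 38 epithelial genes were listed. The reprogramming factors measured, which sum transgene and endogenous reads, were at 194 and 197 in Empty against 181 and 192 in T7-TIA1 for *Klf4* and at 200.3 and 194 against 263 and 233 for *Myc*. Of the 8 pluripotency genes, 6 had negative differences. *Etv5* was at 448 and 361 against 340 and 349.

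**Figure D2:**
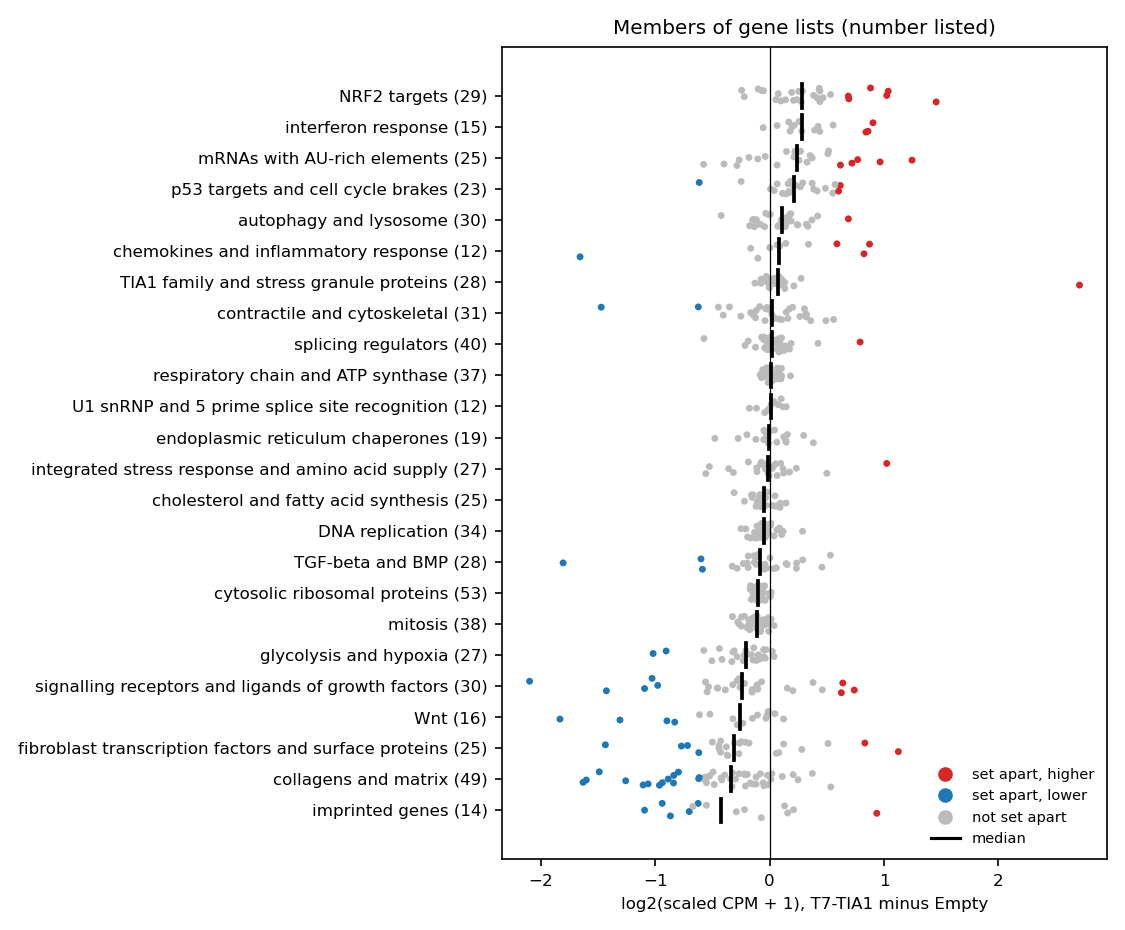
Difference between T7-TIA1 and Empty on the scale log2(scaled CPM + 1) for each listed member (points) of the gene lists with at least 12 listed genes, with the median of each list (black bar). Blue points, set apart as lower, are most frequent among imprinted genes (5 of 14), collagens and matrix (14 of 49), and Wnt genes (4 of 16). Red points, set apart as higher, are most frequent among chemokines (3 of 12), NRF2 targets (6 of 29), mRNAs with AU-rich elements (5 of 25), and interferon genes (3 of 15).

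Genes that differ during reprogramming were defined without the Empty and T7-TIA1 libraries, from the knockdown dataset of the same series, as those at least 2-fold apart and not overlapping between cells with a scrambled shRNA (shSCR) at day 12 and non-infected cells at day 0 (2 libraries each). Among the 1037 genes higher in shSCR that were in both tables, the median T7-TIA1 minus Empty difference was −0.10, 733 were negative and 304 positive, and 57 (5.50%) were set apart as lower against 10 (0.964%) as higher. Among the 819 genes lower in shSCR, the median was 0.080, 521 were positive and 298 negative, and 36 were set apart as higher against 28 (3.42%) as lower. Over the 7185 other genes the median was 0.0064, with 0.571% set apart as higher and 1.32% as lower, and over all 9041 shared genes 0.962% and 1.99%, close to the share of higher genes in the first set. The shift was thus small and opposite to the direction of reprogramming in both sets. Without Empty replicate 1 the medians came to −0.041 and 0.036, and without T7-TIA1 replicate 1 to −0.062 and 0.040, with the same signs.

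Genes set apart were also looked up in the knockdowns of the knockdown dataset, which share no library with T7-TIA1 and Empty and whose table was scaled separately. The 186 lower genes, of which 180 were in that table, had a median of 0.73 for shCPSF3 minus shSCR and 0.73 for shUL1 minus shSCR (knockdown of *Hnrnpul1*), with 143 and 150 genes above 0. The 92 higher genes, of which 87 were in the table, had medians of 0.75 and 0.40, with 73 and 61 genes above 0. Over all 9041 shared genes these medians were 0.025 and −0.00014, with 4691 and 4517 genes above 0, so that both sets lay higher in the knockdowns than genes at large. *Igfbp5*, for example, averaged 54.9 scaled CPM in shSCR, 224 in the shCPSF3 libraries, and 340 in the shUL1 libraries, and *Postn* 115, 871, and 653. *Nqo1* averaged 19.3, 35.7, and 16.5. Over the same 9041 genes, differences correlated at r = 0.062 with shCPSF3 and −0.049 with shUL1, given as a description across genes, which are not independent replicates.

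Splicing differed in 1445 events by the rule of a |∆PSI| of at least 10 between group means and at least 5 PSI between the closest libraries of both groups (0.342% of 422272 events), 637 with higher and 808 with lower PSI in T7-TIA1. Of these, 1436 lay outside *Tia1*, in 975 genes. Lower inclusion predominated among cassette exons. Outside *Tia1*, 171 cassette exons were higher and 381 lower (with those in *Tia1*, 0.139% and 0.310% of 123549 exons), so that 69.0% were lower. Over all classes together the excess of lower events was not stable, with 2372 higher and 3462 lower events for replicate 1 alone and 2357 and 2000 for replicate 2 alone. Retained introns leaned the other way, with 163 higher and 124 lower, and alternative 3′ splice sites (126 and 129) and 5′ splice sites (175 and 167), whose variants are complementary by construction, were balanced. Over all 8637 cassette exons with a mean PSI between 5 and 95, the median ∆PSI was −1.14, and 5297 were lower and 3335 higher. The excess of lower exons was present with replicate 1 alone (585 higher and 1296 lower among all cassette exons, with no spread between libraries to compare) and was smaller with replicate 2 alone (523 and 663).

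**Figure D3:**
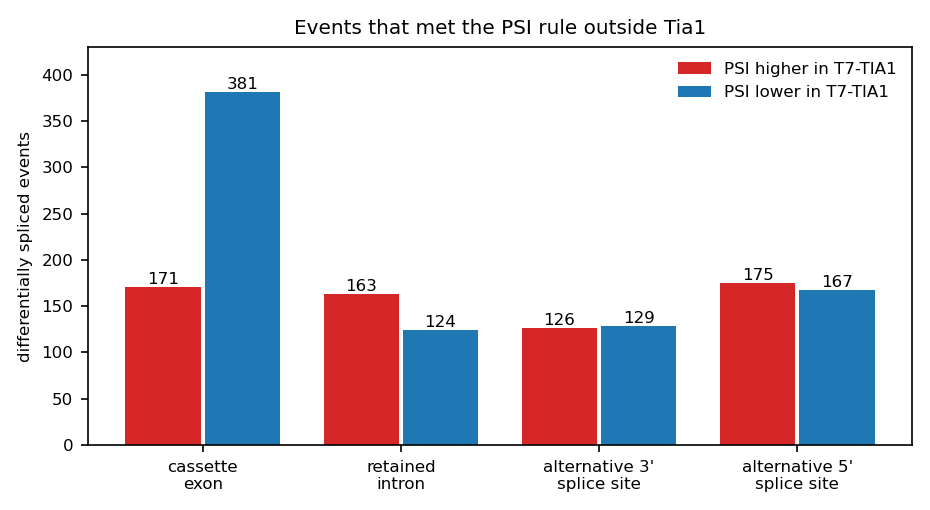
Number of events outside *Tia1* that met the PSI rule, by class and by direction (red, PSI higher in T7-TIA1; blue, PSI lower). Lower inclusion exceeds higher inclusion among cassette exons (381 against 171), whereas retained introns lean the other way (124 against 163).

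Exons that met the rule were compared with all 8637 cassette exons of intermediate PSI in length, reading frame, and annotation, which the rule does not use. Their lengths were similar, with medians of 99 nt for higher, 111 nt for lower, and 104 nt for all such exons. Lengths that are multiples of 3 nt, which keep the reading frame, made up 49.7% of higher, 48.6% of lower, and 42.8% of all exons. Microexons of at most 27 nt were 8 of 171 higher (4.68%) and 9 of 381 lower exons (2.36%), against 233 of all 8637. Coding sequence in GENCODE held 60.2% of higher and 72.7% of lower exons, against 63.8%. The rule itself used PSI, so the following medians only describe the exons it chose. The median PSI of the lower exons went from 81.2 in Empty to 64.2 in T7-TIA1, with 73.8 in NI, and that of the higher exons from 48.6 to 65.1, with 54.3 in NI. Of the 216 lower exons whose gene was in the expression table, 16 lay in genes set apart in expression, as did 6 of 109 higher exons and 180 of 6288 among all exons of intermediate PSI. A comparison of base composition was void because fewer than 80% of exons matched an annotated exon (73.7% of higher, 77.4% of lower, and 73.9% of all).

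The coding exons on which the following results turn are printed here from the GENCODE transcripts of mm10, 5′ to 3′ on the strand of the gene, with the last 3 bases in capitals, since these border the 5′ splice site near which TIA1 acts. The first 6 were less included in T7-TIA1 and the next 5 more included.
Fn1, chr1:71593071-71593235, minus strand: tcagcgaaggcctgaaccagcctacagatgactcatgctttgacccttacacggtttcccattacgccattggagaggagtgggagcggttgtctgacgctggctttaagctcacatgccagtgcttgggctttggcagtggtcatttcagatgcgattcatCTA
Inpp5k, chr11:75638145-75638256, plus strand: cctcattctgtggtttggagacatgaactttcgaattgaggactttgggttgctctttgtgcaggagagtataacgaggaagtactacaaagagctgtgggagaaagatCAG
Ociad2, chr5:73326281-73326398, minus strand: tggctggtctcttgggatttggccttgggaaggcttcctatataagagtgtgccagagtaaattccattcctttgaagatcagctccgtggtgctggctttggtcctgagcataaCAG
Clasp1, chr1:118506940-118507017, plus strand: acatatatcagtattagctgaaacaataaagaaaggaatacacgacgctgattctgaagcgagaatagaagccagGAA
Ano1, chr7:144619475-144619486, minus strand: gaagctgtcAAG
Myof, chr19:37969907-37969945, minus strand: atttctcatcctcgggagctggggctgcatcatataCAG
Ptprk, chr10:28562107-28562142, plus strand: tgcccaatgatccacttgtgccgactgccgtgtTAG
Phldb2, chr16:45788989-45789117, minus strand: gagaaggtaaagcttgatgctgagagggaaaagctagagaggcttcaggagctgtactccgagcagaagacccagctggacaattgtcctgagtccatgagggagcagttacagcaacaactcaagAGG
Ppfibp1, chr6:147012918-147012947, plus strand: gaaaaggagtctatccagaagctttcaGAG
Ehbp1, chr11:22062780-22062887, minus strand: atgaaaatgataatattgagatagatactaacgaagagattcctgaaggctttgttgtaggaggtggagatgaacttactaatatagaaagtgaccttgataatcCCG
Tcf12, chr9:71868999-71869070, minus strand: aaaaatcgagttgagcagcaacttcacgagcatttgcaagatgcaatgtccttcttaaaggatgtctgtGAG

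In a read-level test, *limma* on log2 of inclusion over exclusion reads with counting error as weights, 23 of 254137 events had an adjusted p under 0.05 (0.00905%), and 16009 (6.30%) an unadjusted p under 0.05. *Tia1*, with its cDNA reads, accounted for 18 of the 23, and 3 other genes held the remaining 5. The 165 nt exon of *Fn1*, which encodes fibronectin, a major matrix glycoprotein and ligand of integrins, fell from 97.4 and 97.2 PSI in Empty to 89.9 and 91.1 in T7-TIA1 (∆PSI −6.77, adjusted p = 0.0152), with at least 31387 reads in each day 12 library. In NI it was included at 98.1 and 98.2. A further *Fn1* exon of 467 nt (chr1:71597281-71597747, coding) fell from 98.7 and 98.6 to 95.3 and 96.1 (adjusted p = 0.0355). *Fn1* expression itself overlapped between groups, at 5068 and 6656 scaled CPM in Empty and 5000 and 5506 in T7-TIA1. Both *Fn1* exons stayed below the 10 PSI of the rule. The 112 nt coding exon of *Inpp5k*, an inositol polyphosphate 5-phosphatase, fell from 98.3 and 98.2 to 86.2 and 90.4 (∆PSI −9.91, adjusted p = 0.0420).

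The other events with an adjusted p under 0.05 were a complementary pair of 3′ splice sites of *Trp53bp1*, which encodes the DNA damage response protein 53BP1. PSI of the downstream site (chr2:121208127, minus strand) rose from 2.00 and 1.77 in Empty to 17.8 and 16.9 in T7-TIA1 (adjusted p = 0.0355), over 227 to 257 reads, and was 1.81 and 1.87 in NI. A 5′ splice site of the same intron, chr2:121209079 in place of chr2:121209081, went from 0 in both Empty libraries to 18.6 and 17.2 (adjusted p = 0.0584). Each site lay 2 nt downstream of the main one, so that both shifts together leave the length of the spliced mRNA unchanged. In the knockdown dataset the downstream 3′ splice site averaged 10.8 PSI in shSCR and 15.7 in NI, 1.02 and 4.80 in shCPSF3#1 and #2, and 0.755 and 14.2 in shUL1#1 and #2. Its use thus also varied over this range among libraries without T7-TIA1. None of the 5 events kept an adjusted p under 0.05 when any library was left out, or when only the Empty and T7-TIA1 libraries were fitted.

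Cassette exons that met the PSI rule outside *Tia1* were led, in the lower direction, by *Ociad2*, *Clasp1*, and *Dpy19l4*, each at an adjusted p = 0.0774. When only the 31671 events with a mean PSI between 5 and 95 were tested, their adjusted p values were 0.00623, 0.0150, and 0.00138. This mean was taken over all libraries of the overexpression dataset, T7-TIA1 included. *Clasp1*, above 95 in every Empty and NI library, thus entered only through its T7-TIA1 values. These smaller p values depend in part on a choice of events that uses the values under test. The 118 nt exon of *Ociad2*, a gene for a protein of endosomes and mitochondria, was at 99.2 and 98.4 PSI in Empty and 88.8 and 88.7 in T7-TIA1. The 78 nt exon of *Clasp1*, a protein that stabilizes microtubule plus ends, was at 98.2 and 97.8 against 86.4 and 87.3. The 75 nt exon of *Dpy19l4* (chr4:11290391-11290465) was at 95.5 and 96.8 against 61.6 and 73.8. For these 3 exons NI was between 92.7 and 100 PSI, so that the T7-TIA1 libraries stood below all others. The microexon of 12 nt in *Ano1*, a calcium-activated chloride channel, was at 97.2 and 98.3 in Empty, 82.3 and 87.4 in T7-TIA1, and 100 in both NI libraries.

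*Sh3kbp1*, an adaptor of receptor endocytosis, included its 129 nt exon (chrX:159961765-159961893) at 91.2 and 89.8 PSI in Empty and 75.9 and 76.7 in T7-TIA1. *Myof*, the membrane repair protein myoferlin, included its 39 nt exon at 83.5 and 81.4 against 61.6 and 64.0, and *Heg1*, a receptor of the cerebral cavernous malformation pathway, a 175 nt exon (chr16:33763442-33763616) at 89.8 and 90.5 against 77.3 and 78.3. For 2 exons the T7-TIA1 value lay between Empty and NI. *Pla2g6*, a phospholipase, included its 165 nt exon (chr15:79304305-79304469) at 85.0 and 85.8 in Empty, 49.2 and 59.7 in T7-TIA1, and 42.2 and 39.1 in NI. *Porcn*, the acyltransferase that lipidates Wnt proteins, included its 131 nt exon (chrX:8203159-8203289) at 95.7 and 96.2, 76.1 and 84.9, and 64.8 and 55.8. The exon of *Ip6k2*, an inositol hexakisphosphate kinase (113 nt, chr9:108796671-108796783), was already rare in Empty, at 18.4 and 15.9, and was at 3.68 and 3.73 in T7-TIA1. Adjusted p values of these 10 lower exons were between 0.0774 and 0.190. Among events with a mean PSI between 5 and 95 alone, 9 of the 10 were under 0.05, with *Heg1* at 0.0528. That mean includes the T7-TIA1 libraries, so exons such as *Ano1* and *Clasp1* entered only through their lower T7-TIA1 values. The count of 9 is therefore not a separate test of these exons.

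In the higher direction, the 90 nt coding exon of *Csnk1g3*, a casein kinase, came first (chr18:53936853-53936942), with 16.6 and 17.3 PSI in Empty, 35.8 and 35.1 in T7-TIA1, and 28.6 and 25.8 in NI (adjusted p = 0.149). The 36 nt exon of *Ptprk*, a receptor phosphatase of cell contacts, was at 4.51 and 4.30 against 16.2 and 13.8. The 129 nt exon of *Phldb2*, which anchors microtubules near focal adhesions, was at 72.7 and 71.2 against 84.6 and 85.0, and the 30 nt exon of *Ppfibp1*, a liprin, at 6.91 and 7.21 against 21.9 and 18.2. The 108 nt exon of *Ehbp1*, which links endocytosis to actin, had the largest difference and the widest spread of these 10, at 14.2 and 10.6 in Empty and 57.4 and 34.7 in T7-TIA1. The 72 nt exon of *Tcf12*, an E-protein transcription factor, was at 26.6 and 33.1 against 50.5 and 47.9. *Pja2*, a ubiquitin ligase, included its 186 nt exon (chr17:64297724-64297909) at 62.6 and 65.7 against 79.6 and 80.3. *Fam135a*, *9930021J03Rik*, and *Fam151b* completed the 10, with ∆PSI of 14.0, 15.2, and 15.4. Adjusted p values of these 10 exons were between 0.149 and 0.522, and in the test of mean PSI between 5 and 95 alone *Ehbp1* (0.0235) and *Ppfibp1* (0.0415) were under 0.05.

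**Figure D4:**
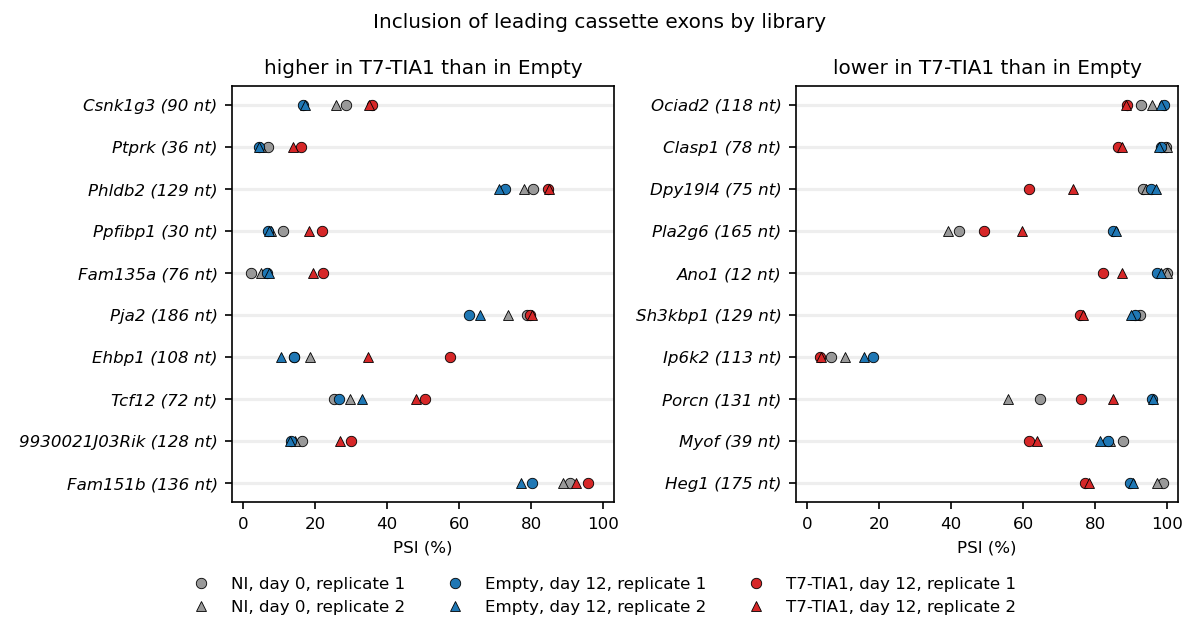
PSI of the 10 cassette exons per direction with the smallest read-level p among those that met the PSI rule outside *Tia1* (1 per gene, exon length in parentheses), in each library of the overexpression dataset. Red symbols (T7-TIA1) do not overlap blue symbols (Empty) for any exon, and grey symbols (NI, day 0) lie beside the Empty libraries for exons such as *Myof* and between Empty and T7-TIA1 for *Csnk1g3*.

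Among retained introns, *Itpr1*, an intracellular calcium channel, retained a 1028 nt intron (chr6:108388339-108389366) at 23.7 and 23.8 PSI in Empty and 40.1 and 39.6 in T7-TIA1, and an alternative 5′ splice site at the start of this intron was at 21.0 and 28.7 against 48.9 and 46.4. The 519 nt intron of *Pced1a* was at 11.4 and 13.2 against 26.5 and 26.5, and a 4441 nt intron of *Ehbp1* at 30.5 and 32.4 against 50.7 and 45.6. Lower retention was found for *Als2cl* (20.4 and 21.4 against 5.26 and 6.17), the imprinted cell cycle inhibitor *Cdkn1c* (30.1 and 34.1 against 19.2 and 21.8), and *Btbd19* (65.0 and 67.4 against 46.6 and 50.9). Adjusted p values of these introns were between 0.371 and 0.681. Some alternative sites were seen in only part of the libraries. A 5′ splice site of *Ska3*, a kinetochore protein, was at 0 in both Empty and both NI libraries and at 14.6 and 19.8 in T7-TIA1, but averaged 9.86 in shSCR of the knockdown dataset. A 3′ splice site of *Acd*, a telomere shelterin subunit, was at 19.8 and 19.1 in Empty and 0 in the 4 other libraries, and of *Tmem44* at 0 in Empty and 19.9 and 22.0 in T7-TIA1, but also 0 and 18.4 in NI. In the knockdown dataset the *Acd* site averaged 14.6 in shCPSF3#1 and the *Tmem44* site 28.9 in shCPSF3#2 and 8.39 in shUL1#1, so that these sites were also used without T7-TIA1.

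A set of 13 genes was looked up separately, some with exons known to be regulated by TIA1, such as *Fas*, and others, such as *Grhl1* and *Dnmt3b*, with exons linked to reprogramming. Of these, *Fas*, *Nf1*, *Smn1*, *Lef1*, *Plod2*, *Pcnt*, *Afdn*, *Grhl1*, *Numb*, and *Dnmt3b* had 0 events that met the rule, from 22 covered events in *Fas* to 155 in *Nf1*. *Tial1* had 3 of 41 covered events, *Fgfr2* 4 of 47, and *Spag9* 1 of 113, against 0.342% of all events. Those of *Fgfr2* include a complementary pair of variants of the same 5′ splice site event. In *Tial1*, a 69 nt exon (chr7:128447039-128447107) and a 68 nt exon (chr7:128446731-128446798) were at 44.2 and 28.0 and at 56.0 and 37.8 PSI in Empty, and at 75.3 and 62.7 and at 82.3 and 72.9 in T7-TIA1. In NI they were at 12.4 and 14.5 and at 21.8 and 29.7. Retention of a 334 nt intron of *Tial1* was also higher, at 17.0 and 15.3 against 25.05 and 31.9. The Empty libraries of *Tial1* were far apart, yet both T7-TIA1 libraries lay above them (adjusted p from 0.570 to 0.638, and 0.0415 for the 69 nt exon among events with a mean PSI between 5 and 95). *Fgfr2*, a fibroblast growth factor receptor, included a 94 nt exon (chr7:130198470-130198563) at 91.1 and 93.1 in Empty, 80.2 and 77.4 in T7-TIA1, and 100 in NI, and a 78 nt exon (chr7:130241200-130241277) at 60.7 and 66.1 against 76.0 and 78.2. The 39 nt exon of *Spag9*, a scaffold of JNK signalling, was at 45.6 and 54.2 against 35.9 and 37.1.

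The same gene lists were examined for splicing. Of all 12907 genes with covered events outside *Tia1*, 975 (7.55%) had an event that met the rule. For collagens and matrix it was 3 of 54 (*Col16a1*, *Tnc*, and *Vcan*), for NRF2 targets 1 of 31, and for mitosis 0 of 38. Among splicing regulators it was 6 of 43 (*Hnrnpa1*, *Hnrnpc*, *Hnrnpk*, *Rbm47*, *Rbms3*, and *Srsf5*), among genes of U1 snRNP and 5′ splice site recognition 2 of 12 (*Luc7l2* and *Luc7l3*), and among cytosolic ribosomal proteins 9 of 54. No list was tested for enrichment.

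Exons of reprogramming were defined, like the genes, from shSCR and NI of the knockdown dataset alone by the PSI rule. The 952 cassette exons whose inclusion was higher in shSCR than at day 0 had a median ∆PSI of −3.46 between T7-TIA1 and Empty. Of these, 729 were lower and 223 higher in T7-TIA1, and 80 (8.40%) met the rule as lower against 12 (1.26%) as higher. The 570 exons whose inclusion was lower in shSCR had a median ∆PSI of 0.31, with 22 exons that met the rule in each direction. Over 5609 other exons of intermediate PSI the median was −0.92, and 160 (2.85%) were lower against 88 (1.57%) higher. Exons that gain inclusion in reprogramming were thus less included in T7-TIA1 than in Empty. The median of the first set stayed between −4.52 and −2.45 without each Empty or T7-TIA1 library, whereas that of the second set came to 0.010 without Empty replicate 1.

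**Figure D5:**
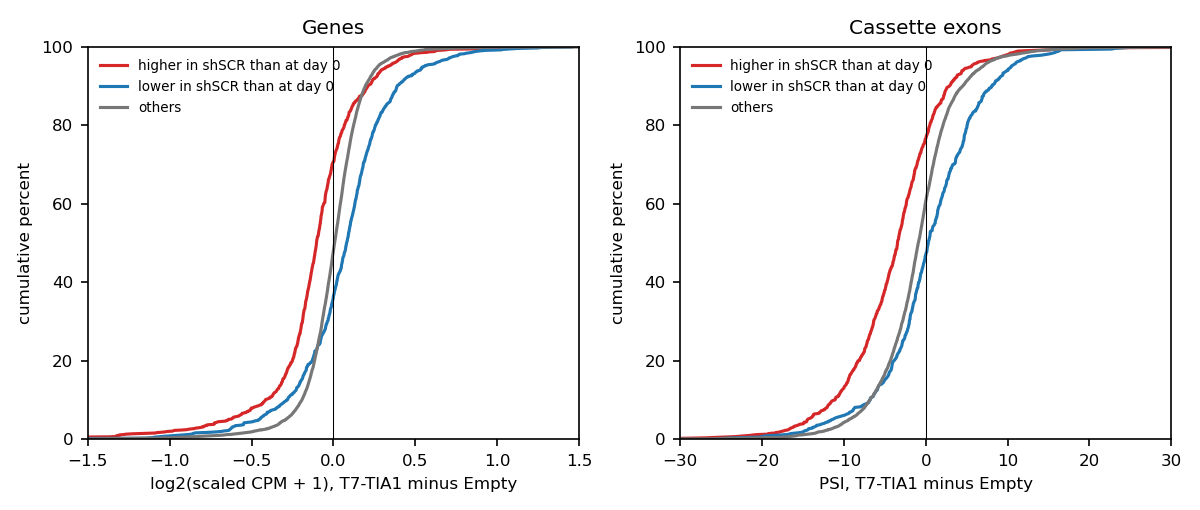
Cumulative distribution of the difference between T7-TIA1 and Empty for genes (left, log2 scale) and cassette exons (right, PSI), for the sets higher (red) or lower (blue) in shSCR at day 12 than at day 0 and for the others (grey; exons with mean PSI between 5 and 95). The red curves lie to the left, with medians of −0.10 for genes and −3.46 PSI for exons.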

How the data were processed

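RNA-seq data of MEFs were used as deposited. The authors mapped reads to mm10 with *STAR* 2.7.1a, obtained CPM with *edgeR* 3.16.5, and filtered genes. Expression was deposited as scaled CPM, treated here as a signal and not as counts. Splicing was quantified by the authors with *vast-tools*, and PSI was deposited in percent, beside a text field with coverage scores and reads. The members and gene lists were chosen with earlier results of these data known, and the lists of NRF2 targets and imprinted genes after values had been seen.

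Expression was compared with *limma* 3.58.1 in R 4.3.3 (trend, two-sided, Benjamini-Hochberg) on log2(scaled CPM + 1) over the 6 libraries of the overexpression dataset, because the deposited values are not counts. Events were tested with *limma* on log2 of inclusion over exclusion reads, after adding 1 read on both sides, with weights from counting variance and a floor of 0.0571. Values per library, sets, and figures were computed in Python. Named genes were the 12 per direction with the widest distance between the closest libraries and a mean of at least 10 scaled CPM in a group, and up to 4 set apart members per list, with a few others for context. Named events were the 10 cassette exons and 3 events of each other class per direction with the smallest p among those that met the PSI rule, 1 per gene, and those with an adjusted p under 0.05. Tested on simulated data, the gene test recovered 8.00%, 56.0%, and 82.0% of changes of 0.58, 1, and 2 (log2) in 9472 genes, and the event test 15.0% and 74.0% of changes of 1 and 2 in 20000 events. These rates hold for the simulated data only, and the share of true changes recovered by the reported tests is not known from them. The reported event test covered 254137 events. In the reported gene test, *Tia1*, with a log2 difference of 2.71, had an adjusted p of 0.222 in *limma*. A value with few reads has a wide counting error. Some results on individual genes are not reported here.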

Additional observations from a re-analysis of the deposited data

How the results depend on the processing

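The count of genes with an adjusted p under 0.05 was 0 under 0.1 or 5 added before the logarithm, a minimum mean of 10, equal sums, median-of-ratios scaling, and no trend. With only Empty and T7-TIA1 libraries it was 1 higher (*Tia1*) and 1 lower (*Igfbp5*), and from 0 to 1 in each direction without each library (1 without either NI library, 0 without any Empty or T7-TIA1 library). Labels give replicate numbers 1 and 2 in every group. Deviations from group means correlated across genes at 0.186 for Empty with T7-TIA1, 0.171 for Empty with NI, and 0.308 for T7-TIA1 with NI (across events 0.122, 0.0215, and 0.0449), and with 2 replicates per group the numbers are not taken to pair the libraries. With the replicate block the count was 0. The block with only Empty and T7-TIA1 libraries, added after seeing the data, gave 107 higher and 223 lower genes. Genes set apart ranged from 50 to 210 higher and 98 to 305 lower without each Empty or T7-TIA1 library.

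Events that met the PSI rule numbered 265 higher and 354 lower with a minimum of 15 PSI (cassette exons 79 and 159), and 1090 and 1415 with no minimum range (cassette exons 267 and 619). With replicate 1 alone there were 2372 higher and 3462 lower events, and with replicate 2 alone 2357 and 2000, so that the excess of lower events over all classes turned round. Among cassette exons lower events were in excess in both (585 and 1296, and 523 and 663). Read-level events with an adjusted p under 0.05 numbered 0, in all genes and outside *Tia1*, with PSI in percent, with only Empty and T7-TIA1 libraries, and without each library (from 0 to 0). With the replicate block they numbered 38, of which 18 lay outside *Tia1*. With mean PSI between 5 and 95, a mean that includes the T7-TIA1 libraries under test, 24 lay outside *Tia1*. The cause was not tested.

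Genes of reprogramming lower in shSCR had a median of 0.157 with a 4-fold limit. Exons of reprogramming had medians of −5.30 (higher in shSCR) and 1.17 (lower in shSCR) with a minimum of 20 PSI, and from 0.010 to 1.06 for the second set without each Empty or T7-TIA1 library. Of the 63 genes and 67 events recomputed under the alternatives (leading genes and list members set apart, and leading, called, and looked-up events), 0 changed direction, and no list median of 0.1 or more changed sign. Smaller medians, such as those of DNA replication (from −0.127 to 0.0223), endoplasmic reticulum chaperones, and TGF-β and BMP genes, lay on either side of 0. A count test on reads derived from the scaled CPM, and U-rich sequence in introns near exons, were not run, the latter because no genome sequence was used here.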

Other observations

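A list of 21 imprinted genes, drawn up after *Igf2* had been seen among the leading genes, held 14 listed genes, of which 5 (35.7%) were set apart as lower and 1 as higher, against 1.96% and 0.971% of all genes, with a median log2 difference of −0.42. Without each Empty or T7-TIA1 library this median lay between −0.51 and −0.27, the latter without Empty replicate 1. *H19*, the non-coding RNA beside *Igf2*, was at 2648 and 2694 scaled CPM in Empty and 1267 and 1530 in T7-TIA1, and at 243 and 1979 in NI, so that the NI libraries differed more than the day 12 groups. *Mest* was at 53.8 and 59.1 against 27.6 and 33.7, *Sgce* at 34.9 and 35.1 against 19.97 and 24.9, and *Plagl1*, a zinc finger regulator of this group, at 104 and 128 against 59.9 and 83.0. *Peg10*, which lies beside *Sgce*, went the other way, at 304 and 237 in Empty and 685 and 387 in T7-TIA1. The counts follow from genes already seen and were not tested.

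*Cxcl12*, a chemokine of stromal cells, was at 300 and 463 scaled CPM in Empty and at 60.5 and 227 in T7-TIA1 (log2 difference −1.66), whereas *Il1rl1*, the receptor of interleukin-33, was at 43.3 and 76.8 against 117 and 97.3, and *Ccl7* at 55.9 and 92.0 against 108 and 109. Of 12 listed chemokine and inflammatory genes, 3 were set apart as higher and 1 as lower, against 0.971% and 1.96% of all genes.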
